A study of Apostichopus japonicus with 12 samples.

Results

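The genes described here encode the oxidative phosphorylation machinery, measured in the intestine of Apostichopus japonicus, a sea cucumber of the sea floor, under heat. They were picked by the wording of the gene descriptions. A gene model belongs when its description names an enzyme of the respiratory chain or the mitochondrial ATP synthase and does not name an assembly factor or the V-type proton pump of other membranes. This wording matched 74 of the 30221 gene models in the expression table, with 36 in complex I, 4 in complex II, 8 in complex III, 9 in complex IV and 17 in complex V. RNA was taken from 12 animals of about the same size, 3 in each of 4 groups. Animals of the 30 °C group were kept for 6 h at 30 °C, and animals of the other heat groups for 48 h or 6 h at 26 °C. Water was warmed gradually from 18 °C and the hours were counted from the moment the target was reached, so the 30 °C animals had also been warming for longer. Control animals stayed at 18 °C, carry no time label and serve every heat group.

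Oxidative phosphorylation is the process by which mitochondria turn the oxidation of nutrients into ATP. Complex I (NADH dehydrogenase) and complex II (succinate dehydrogenase) pass electrons to ubiquinone, complex III (cytochrome b-c1) hands them to cytochrome c, and complex IV (cytochrome c oxidase) gives them to oxygen. Complexes I, III and IV pump protons as they work, and complex V (ATP synthase) uses the returning protons to make ATP. Gut tissue spends much of its energy on absorption, secretion and renewal of its lining, and respiration is among the functions that temperature acts on in animals without a constant body temperature.

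Values are the authors' FPKM, read fragments per unit of gene length and of library depth, from which 1788303 to 3956056 reads on genes per library were recovered. The sum of FPKM in a library ran from 562397 in control animal 3 to 3014690 in 30 °C animal 3, although the median log2 change of all tested genes lay between −0.081 and 0.12 in the 5 comparisons. A level is therefore given both as deposited and, where the direction depends on it, after rescaling every library to the same sum of FPKM. Between 12887 and 19887 genes had a read, with the lowest numbers in 26 °C 6 h animal 1 and 30 °C animal 3. Genes that mark gut lining were read in every library, among them a trypsin-like serine protease (BSL78_00549, mean 907 FPKM) and villin-1 (BSL78_02148, mean 321 FPKM), a protein of the microvilli. Muscle genes were read too, including tropomyosin (BSL78_18963, mean 399.9 FPKM). In such bulk samples, fewer cells of a type and less RNA per cell cannot be told apart.

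All 74 gene models passed the filter of a mean of at least 0.5 FPKM, and 65 had reads in every library. The other 9 had 0 reads in at least 1 library, with means over all animals from 3.83 to 166 FPKM. The descriptions name a subunit or protein for 38 of the 74. Of the complex I models, 32 are described only as NADH dehydrogenase, and the 4 models of complex II only as succinate dehydrogenase, so their subunits are not given here and they are called by identifier. Every subunit that is named is one that nuclear genes encode in animals. A few named models lie at the edge of the set. COX20-like (BSL78_01595) and the translational activator of cytochrome c oxidase 1 (BSL78_00632, known as TACO1) in mammals help to build complex IV and are not subunits of it. ATP synthase subunit s and its like-named models (BSL78_02885, BSL78_17533 and BSL78_06823) averaged 13.1, 16.4 and 4.12 FPKM, far below the 17 models' median of 251 FPKM for complex V.

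The highest levels were those of small complex IV subunits. Cytochrome c oxidase subunit 6B1 (BSL78_17682, scaffold MRZV01000713.1, 102555 to 103714, coding length 249 bases), which links the paired units of the enzyme, averaged 2161 FPKM over the 12 animals. Subunit 7A1 (BSL78_17110, scaffold MRZV01000670.1, 127701 to 130413, coding length 249 bases) averaged 1962 FPKM and subunit 6C-2 (BSL78_27095, scaffold MRZV01001750.1, 103974 to 105885, coding length 396 bases) 1373 FPKM. Together these 3 models held between 22.6% and 36.95% of the 74 genes' summed FPKM in a library, and the 10 highest held 47.5% to 66.8%. Median levels were 546 FPKM for complex IV, 251 FPKM for complex V, 196 FPKM for complex III, 65.3 FPKM for complex I and 45.1 FPKM for complex II. Short coding regions had the higher FPKM. The 36 models under 500 bases had a median of 188 FPKM and the 38 longer ones 43.7 FPKM, beside 5.08 FPKM and 3.12 FPKM for all tested genes split at the same length. The lengths in the table are taken to be coding lengths, and the part of untranslated sequence in these levels was not tested.

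As a set, the 74 genes had a higher mean at 30 °C than in the controls in deposited FPKM and a lower mean in share of reads, with overlapping animals on both scales. Their summed FPKM was 28937, 15242 and 35032 in the 30 °C animals, 27450, 13185 and 11718 in the 26 °C 48 h animals and 14824, 15032 and 12166 in the 26 °C 6 h animals, against 16576, 21863 and 9460 in the controls. The 30 °C mean of 26404 ± 10135 lay above the control mean of 15966 ± 6224 (SD, n = 3 each), but 30 °C animal 2 lay inside the control range. The same genes took 0.875%, 0.397% and 0.709% of the reads on genes in the 30 °C animals and 1.18%, 1.04% and 1.19% in the 26 °C 48 h animals. They took 0.595%, 0.759% and 0.607% in the 26 °C 6 h animals, against 0.639%, 1.39% and 0.961% in the controls. The 95% Wilson intervals of these shares are narrow (0.391 to 0.403 around the lowest and 1.38 to 1.40 around the highest) and cover counting error only. The shares of animals in a group differed by more than these intervals, and animal, library making and composition cannot be told apart in that spread. On this scale the 48 h animals all stood above every animal at 6 h, whether at 30 °C or 26 °C. Several other gene lists given below shared this. For the 74 genes the controls overlapped each heat group.

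A few other transcripts took very different shares of the libraries. Heat shock proteins held 23.5%, 35.2% and 10.1% of the reads in the 30 °C animals, 0.406% to 0.980% in the 26 °C 48 h animals and 1.62% to 6.46% in the 26 °C 6 h animals, against 0.0560% to 0.327% in the controls. Major yolk proteins, abundant in the body fluid of echinoderms, held 8.78% to 20.2% in the 30 °C animals, 5.17% to 17.3% in the 48 h animals and 17.005% to 29.99% in the 26 °C 6 h animals, against 10.2% to 29.5% in the controls. Counted out of the remaining reads, the 74 genes took 1.29%, 0.860% and 1.02% in the 30 °C animals and 1.25%, 1.27% and 1.32% in the 26 °C 48 h animals. They took 0.870%, 0.944% and 0.891% in the 26 °C 6 h animals, against 0.907%, 1.55% and 1.10% in the controls. With those transcripts left out, the 30 °C animals still overlapped the controls and the 26 °C 6 h animals still did not reach the 48 h animals. The 30 °C animals no longer all lay below the 48 h animals. Animal 1 at 30 °C (1.29%) stood above 48 h animals 1 and 2 (1.25% and 1.27%).

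**Figure D1:**
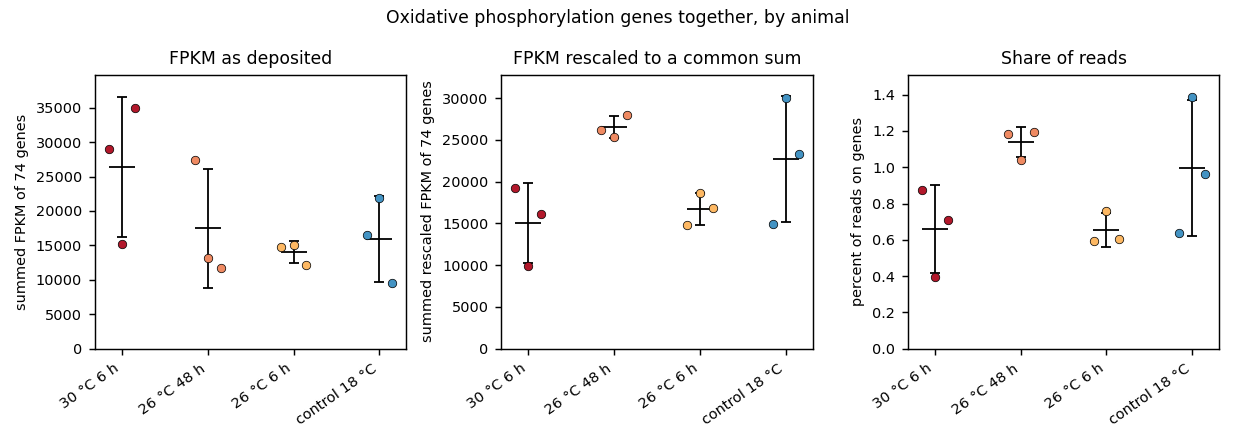
Summed level of the 74 oxidative phosphorylation genes in each of 12 animals, as deposited FPKM, as FPKM rescaled to a common sum per library and as percent of reads on genes; points are animals, and bars show mean and SD of 3 animals. The 30 °C mean is the highest of the 4 groups as deposited (26404) and the lowest after rescaling (15066), while the 26 °C 48 h animals lie above both 6 h heat groups after rescaling.

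The largest share of the 74 genes' FPKM was that of complex IV. Complex IV models held 37.6% ± 2.32 of the 74 genes' FPKM in the 30 °C animals, 37.1% ± 4.93 in the 26 °C 48 h animals and 34.5% ± 4.47 in the 26 °C 6 h animals, against 34.8% ± 4.56 in the controls (SD, n = 3 each). Complex I models held 20.8% ± 1.79 in the 30 °C animals, 23.4% ± 1.96 in the 26 °C 48 h animals and 22.5% ± 1.36 in the 26 °C 6 h animals, against 21.2% ± 3.45 in the controls. In both complexes the ranges of all 4 groups overlapped. Complex III models held 11.68% ± 0.38 at 30 °C, 13.5% ± 1.08 at 26 °C 48 h and 13.4% ± 1.60 at 26 °C 6 h, against 11.3% ± 2.06 in the controls. The 30 °C animals lay below both 26 °C groups without overlap. Every 26 °C 48 h animal (12.60% to 14.68%) also lay above every control (8.90% to 12.56%), by a narrow margin. Complex V models held 27.8% to 29.5% at 30 °C and 29.7% to 31.3% in the controls, 2 ranges that did not overlap. At 26 °C 48 h they held 20.4% to 27.9%, also below every control, while the 26 °C 6 h range of 24.9% to 32.5% overlapped the controls. The 4 complex II models, the smallest share, held 0.9645% to 1.44% at 30 °C and 1.57% to 2.71% in the controls, again without overlap. These shares do not depend on the scaling between libraries, and no test was run on them because the members were chosen with earlier results known. Shares of an animal add up to the whole, so those of the complexes are not independent. Separations were looked for between all pairs of groups in each complex. With 3 animals per group, some such separations arise without any difference.

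**Figure D2:**
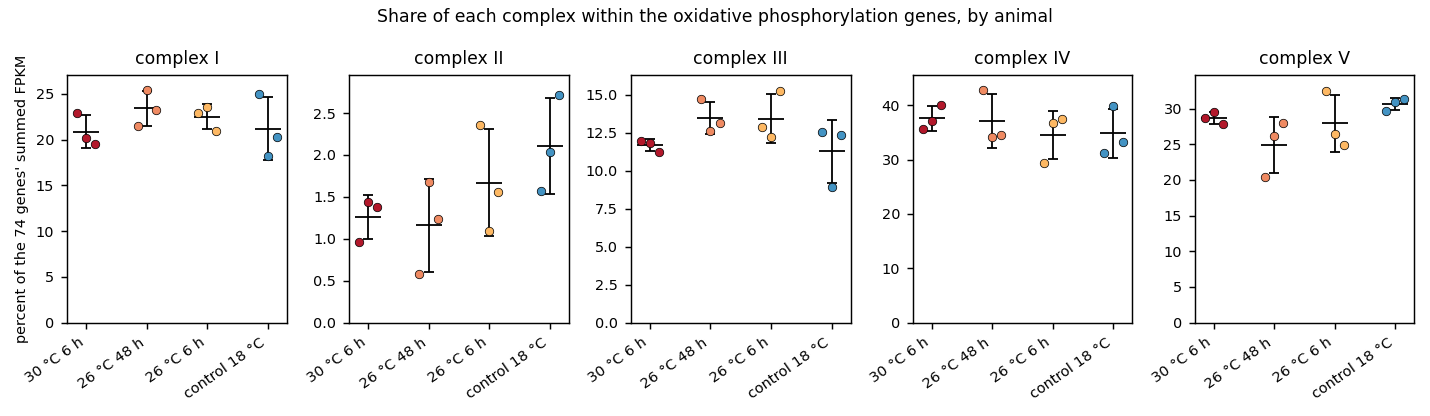
Percent of the 74 genes' summed FPKM held by each respiratory complex, 1 point per animal, with mean and SD of 3 animals per group; each panel has its own axis from 0. Complex V shares of the 30 °C (27.8% to 29.5%) and the 26 °C 48 h animals (20.4% to 27.9%) and complex II shares of the 30 °C animals lie below those of the controls without overlap. Complex III shares of the 26 °C 48 h animals lie above those of the controls, and those of the 30 °C animals below both 26 °C groups. The shares of complexes I and IV overlap in all groups.

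None of the 74 genes passed the test in any comparison. Genes were tested with limma on log2(FPKM + 1) over all 18729 genes past the filter, with p-values adjusted by the Benjamini-Hochberg method over all of them at 0.05, and a log2 change on this scale understates the change of low genes. Between 30 °C and control, 0 of 74 were called, where 0.646% of all genes were. At 48 h of 26 °C against control it was 0 of 74, beside 0.0% of all genes, and at 6 h of 26 °C against control 0 of 74, beside 0.032%. Between 30 °C and 26 °C, both at 6 h, it was 0 of 74, beside 0.294%, and for 48 h against 6 h at 26 °C 0 of 74, beside 0.0107%. An F test for any difference among the 4 groups called 0 of 74, beside 0.539%. The limma method for counts, voom, was also applied to the recovered reads. Its library sizes were those implied by the deposited FPKM and not the totals of recovered reads, so the deposited scaling was kept. Voom called 0 of 74 in each of the 5 comparisons and in the F test. Of all genes it called 0.822% for 30 °C against control, 0.0427% for 30 °C against 26 °C, 0.101% for 26 °C 6 h against control, 0.0% for 48 h against control, 0.016% for 48 h against 6 h and 0.603% in the F test. The comparisons with control share the same 3 control animals, and the 26 °C 6 h animals enter 3 of the 5 comparisons.

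At an unadjusted p under 0.05, 7 of the 74 (9.46%) stood out for 30 °C against control, all 7 higher at 30 °C, beside 10.3% of all genes in either direction, 5.31% higher and 5.01% lower. For 30 °C against 26 °C at 6 h it was 7 (9.46%), beside 11.5% of all genes, with 6 higher, beside 6.72%, and 1 lower, beside 4.8%. With 26 °C for 6 h against control there were 3 (4.05%, beside 7.94%), 2 higher, beside 3.35%, and 1 lower, beside 4.6%. At 48 h against control there was 1 (1.35%, beside 4.59%), a higher one, beside 2.24%, and 0 lower, beside 2.35%. At 48 h against 6 h there were 3 (4.05%, beside 6.86%), 1 higher, beside 3.97%, and 2 lower, beside 2.89%. The F test gave 0, beside 10.4%. With voom 7 members stood out for 30 °C against control, beside 11.1% of all genes, 5 for 30 °C against 26 °C, beside 10.7%, and 2 for 26 °C 6 h against control, beside 9.59%. There were 0 for 48 h against control, beside 6.35%, 4 for 48 h against 6 h, beside 8.22%, and 2 for the F test, beside 12.2%. Counted in both directions on log2(FPKM + 1), the share of the 74 genes was below that of all genes in each comparison. The share higher at 30 °C than in the controls was above that of all genes, a direction that depends on how the libraries are scaled. The median standard error of a member's log2 change was 0.63, and the median 95% interval reached 1.36 to either side. Within groups the 74 genes had a median SD of 0.73 (log2), beside 0.87 for all tested genes and 0.98 for genes in the same range of FPKM.

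The heat map shows the single animals. As deposited, 30 of the 74 genes had their highest value in 30 °C animal 3 and 14 in 30 °C animal 1, but only 1 in 30 °C animal 2. Their lowest values fell in control animal 3 for 18 genes and in 26 °C 6 h animal 1 for 13. Thus 60 and 59 genes stood above their own mean in 30 °C animals 3 and 1, 34 in 30 °C animal 2, and 14 in control animal 3. After rescaling to a common sum, 30 °C animal 2 had 5 genes above their own mean and 26 °C 48 h animal 3 had 66. Animals 1 and 3 of the 30 °C group have the largest and control animal 3 the smallest sums of FPKM on the members, and 30 °C animal 3 and control animal 3 hold the largest and smallest sums over all genes.

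**Figure D3:**
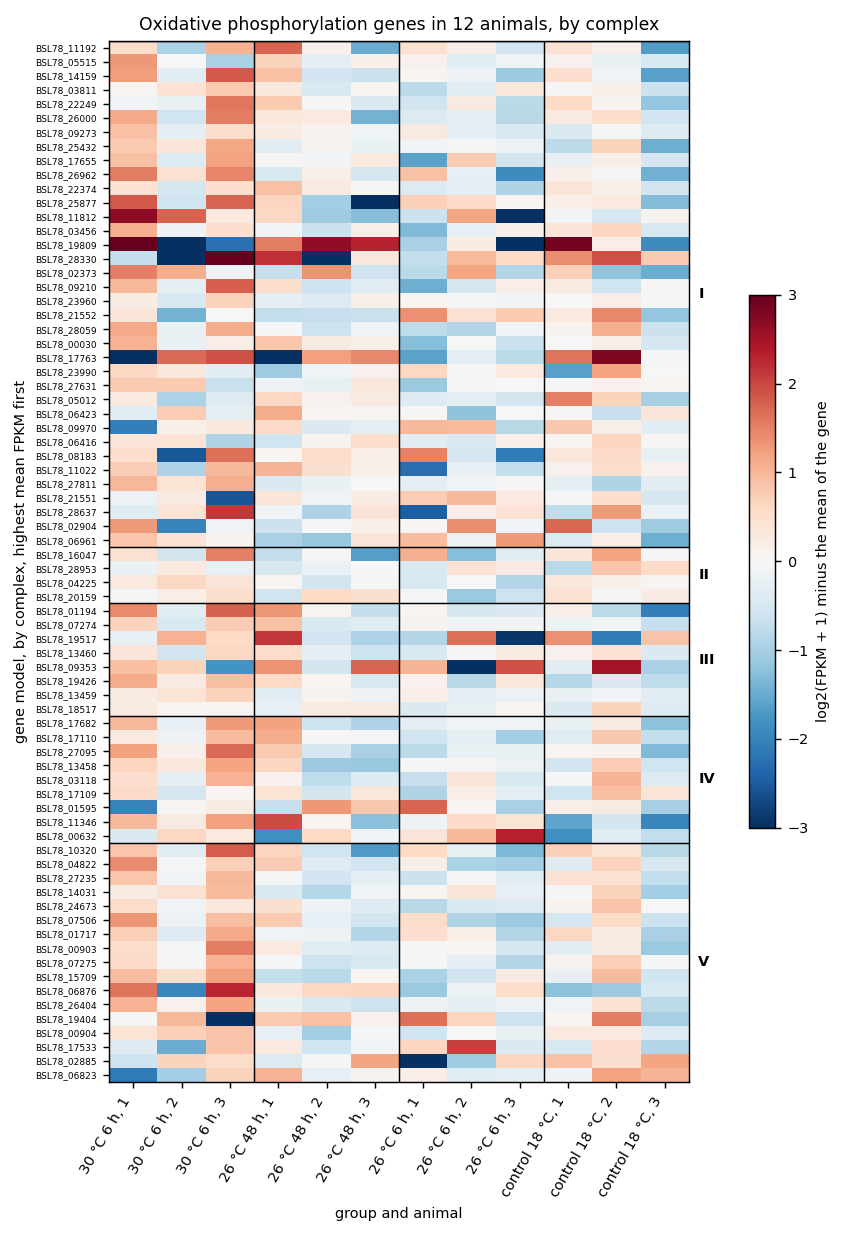
Level of each of the 74 gene models (rows, grouped by complex I to V and sorted by mean FPKM) in each of 12 animals (columns, by group), as log2(FPKM + 1) minus the mean of the gene; colours are limited at 3 to either side. Red prevails in 30 °C animals 1 and 3 and blue in control animal 3, and a few rows such as BSL78_19809, BSL78_28330 and BSL78_09353 differ widely between animals of a group.

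For 30 °C against control the median log2 change of the 74 genes was 0.48, where that of all tested genes was −0.074. Above 0 were 54 of the 74 (73.0%), beside 46.0% of all genes. After rescaling to a common sum the median was −0.81, beside −0.85 for all genes, and 12 of the 74 stood above 0, beside 18.8%. The direction at 30 °C therefore depends on the scaling, with 42 genes above 0 as deposited and below 0 on the common sum, 12 above in both and 20 below in both. Quantile scaling gave −0.41, beside −0.063 for all genes, with 18 of the 74 above 0, beside 47.0%. Scaling on the 74 genes themselves, which centres them near 0 by construction, gave −0.067, beside −0.37 for all genes. Without control animal 3 the deposited median was 0.19, and without 30 °C animal 3 it was 0.30. Groups that did not overlap give the same picture. As deposited, 8 genes (10.8%) had all 30 °C animals above all controls, beside 6.28% of all genes, and 0 had them below, beside 7.98%. On the common sum it was 0 above, beside 1.49%, and 17 below (23.0%), beside 24.0%.

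For 30 °C against 26 °C at 6 h, which sets a higher against a lower temperature at the same hour, the median was 0.78, beside 0 for all genes, and 61 of 74 stood above 0, beside 50% of all genes. It was −0.24, beside −0.52, after rescaling to a common sum, with 17 above 0, beside 28.9%. As deposited, 13 genes (17.6%) stood above without overlap, beside 7.01%, and 2 below, beside 5.88%. Rescaling gave 0 above, beside 2.19%, and 11 below, beside 16.5%. Leaving out 26 °C 6 h animal 1 together with 30 °C animal 3, which had the fewest genes detected in their groups, gave a median of 0.51. Markers of the cell types in the gut wall are given beside these values. Digestive markers had a median of 0.76 for 30 °C against control and 0.38 for 30 °C against 26 °C (38 of 49 tested), and of 0.082 and −0.074 on the common sum, with 0.0458% to 0.340% of the reads at 30 °C, 0.0620% to 0.401% at 26 °C 6 h and 0.0938% to 0.265% in the controls. Muscle markers had −0.28 and 0.65 in the same comparisons (32 of 49 tested), and −1.16 and 0.012 on the common sum, with 0.0812% to 0.273% of the reads at 30 °C, 0.108% to 0.203% at 26 °C 6 h and 0.236% to 0.296% in the controls. Of the 38 digestive markers tested, 1 was called higher at 30 °C in each of these comparisons, beside 0.598% of all genes against control and 0.24% against 26 °C. Of the digestive markers 2 and of the muscle markers 1 had no read in any library, and the part of these cells in the levels of the 74 genes was not tested.

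At 26 °C the members' medians against control were small as deposited. For 6 h against control the median was −0.19, beside −0.081 for all genes, with 29 of 74 above 0, beside 44.8%. It was −0.47 on the common sum, beside −0.29, with 18 above 0, beside 36.1%. Quantile scaling gave −0.42, beside −0.018 for all genes, with 20 of 74 above 0, beside 49.1%. Muscle markers had a median of −0.73 here with 3 of 32 tested above 0, and of −0.96 on the common sum, and their part in the members' levels was not tested. The members' median was 0.038 without control animal 2, −0.039 without 26 °C 6 h animal 3 and −0.44 without control animal 3. As deposited, 3 genes lay above the controls without overlap, beside 4.81% of all genes, and 5 below, beside 7.15%. The common sum gave 2 above, beside 2.43%, and 5 below, beside 7.65%. For 48 h against control the median was −0.0082, beside 0.031, with 36 of 74 above 0, beside 51.6%, and leaving out single animals moved it between −0.22 and 0.19. After rescaling to a common sum it was 0.20, beside 0.16 for all genes, with 45 above 0, beside 58.2%. As deposited, 1 gene lay above without overlap, beside 5.84%, and 1 below, beside 4.85%. With the common sum it was 4 above, beside 5.17%, and 0 below, beside 2.26%.

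The controls carry no time label, so 48 h against 6 h at 26 °C cannot tell longer heat from more time in the experiment. In this comparison the median was 0.19, beside 0.12 for all genes, with 47 of 74 above 0, beside 56.0%. It was 0.032 without 26 °C 48 h animal 1, 0.049 without 26 °C 6 h animal 3 and 0.11 without 26 °C 6 h animal 1. As deposited, 8 genes (10.8%) stood above without overlap, beside 7.87%, and 1 below, beside 4.76%. On the common sum the median was 0.65, beside 0.46 for all genes, with 62 above 0, beside 69.3%, and with 17 genes (23.0%) above without overlap, beside 10.6%, and 1 below, beside 1.85%. With quantile scaling the median was 0.48, beside 0.014 for all genes, with 59 of 74 above 0, beside 50.8%. Muscle markers stood higher at 48 h as well, with a median of 0.78 and 28 of 32 tested above 0, and of 1.23 on the common sum. They took 0.238% to 0.651% of the reads in the 48 h animals, against 0.108% to 0.203% in the 6 h animals, 2 ranges that did not overlap. The 5 major yolk proteins had a median of −2.19 with 0 above 0, and of −1.74 on the common sum. Their median for 30 °C against control was 1.58, and 0.27 on the common sum. The cells that the yolk protein reads came from are not known from these samples. The part of muscle or body fluid in the members' levels was not tested.

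**Figure D4:**
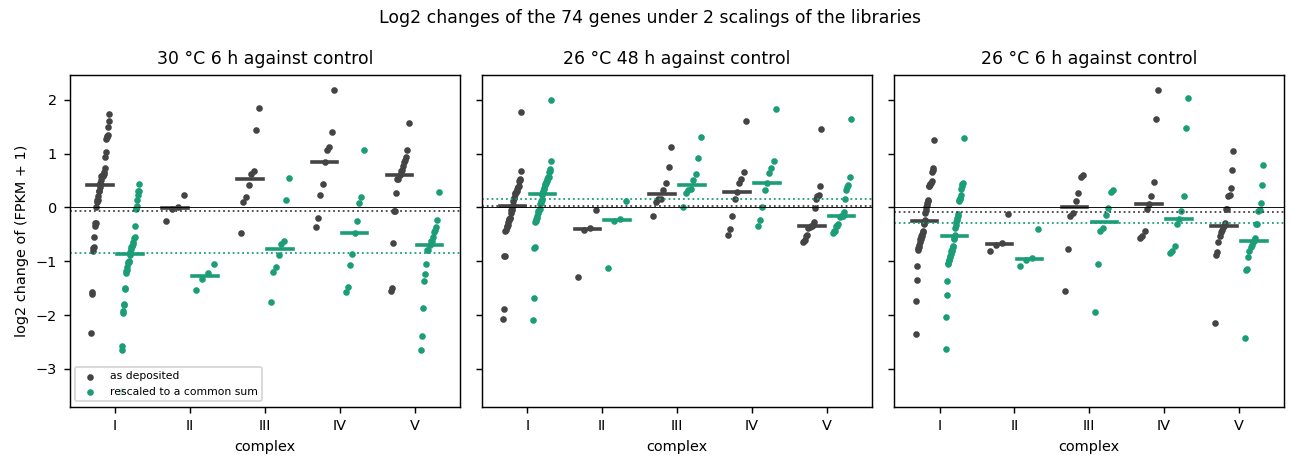
Log2 changes of (FPKM + 1) of the 74 genes by complex for each heat group against control, as deposited (grey) and after rescaling to a common sum (green); points are genes, thick lines medians per complex, dotted lines the median of all tested genes. At 30 °C most points lie above 0 as deposited and below 0 after rescaling, close to the median of all genes, while both 26 °C panels shift less.

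Complex I, the entry point for electrons from NADH, held the most models. Its 36 members had a median log2 change of 0.41 for 30 °C against control. As deposited 26 stood above 0, beside 46.0% of all genes, and on the common sum 6, beside 18.8%. The highest was BSL78_11192 (scaffold MRZV01000351.1, 55198 to 58649, coding length 276 bases), with 992, 348 and 1387 FPKM in the 30 °C animals, 2239, 729 and 239 in the 26 °C 48 h animals and 932, 766 and 449 in the 26 °C 6 h animals, against 901, 739.8 and 210.3 in the controls. The animals of each group spread widely here and all 4 groups overlapped. BSL78_05515 (scaffold MRZV01000138.1, 885604 to 890525, coding length 384 bases) followed, with 929, 376 and 191 FPKM in the 30 °C animals, against 411, 326 and 268 in the controls, again overlapping.

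A lower but steadier complex I model was BSL78_27811 (scaffold MRZV01001919.1, 175175 to 186506, coding length 1324 bases), with the smallest F test p of the complex. It had 23.3, 14.99 and 24.9 FPKM in the 30 °C animals, 7.94, 9.52 and 11.3 in the 26 °C 48 h animals and 8.88, 10.3 and 11.4 in the 26 °C 6 h animals, against 8.80, 5.43 and 8.63 in the controls. All 30 °C animals lay above all animals of the other groups. Its log2 change for 30 °C against control was 1.35 (SE 0.50, 95% interval 0.28 to 2.42, adjusted p = 0.346), and 0.13 on the common sum, where the groups overlapped. Its within-group SD of 0.29 was among the lowest of the 74 genes.

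The other complex I models that stood farthest from control at 30 °C did so with more scatter. BSL78_11812 had 413, 218 and 77.7 FPKM in the 30 °C animals and 40.3, 146 and 6.61 in the 26 °C 6 h animals, against 59.4, 45.5 and 67.7 in the controls, with log2 changes of 1.74 (adjusted p = 0.56) against control and 2.43 (adjusted p = 0.333) against 26 °C 6 h. The 30 °C animals lay above the controls without overlap, but overlapped the 26 °C 6 h animals. BSL78_26962 had 359, 169.7 and 345 FPKM in the 30 °C animals, against 138, 119 and 44.7 in the controls, above without overlap, and a log2 change of 1.56 (adjusted p = 0.409) against 26 °C 6 h, where the groups overlapped. On the common sum the changes against control were 0.44 for BSL78_11812 and 0.30 for BSL78_26962, and the 30 °C animals overlapped the controls in both genes. At 26 °C, BSL78_11022 had 27.4, 18.5 and 14.6 FPKM in the 26 °C 48 h animals, against 1.86, 10.8 and 7.56 in the 26 °C 6 h animals. The groups of this gene did not overlap and the log2 change was 1.64 (adjusted p = 0.658). For BSL78_25877 the same comparison gave −1.63 (adjusted p = 0.753), with overlapping values between 9.23 and 326 FPKM over all animals. The lowest member of all 74 by mean FPKM, BSL78_06961 (80 reads in all libraries together), gave 1.25 (adjusted p = 0.676) for 6 h of 26 °C against control.

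The largest complex I subunit, the 75 kDa subunit that carries iron-sulfur clusters of the electron path, is described for 3 models, and 2 of them lie next to each other on the same strand. BSL78_21551 and BSL78_21552 (scaffold MRZV01001005.1, 317105 to 327764 and 328377 to 332521) are 612 bases apart. These neighbours were the only members whose 30 °C animals lay below all 26 °C 6 h animals as deposited. BSL78_21551 had 8.64, 12.2 and 0.847 FPKM in the 30 °C animals, against 17.5, 20.6 and 12.3 in the 26 °C 6 h animals, a log2 change of −1.50 (adjusted p = 0.431), and −2.24 on the common sum. BSL78_21552 had 49.04, 13.5 and 37.5 FPKM in the 30 °C animals, 22.03, 22.96 and 23.3 in the 26 °C 48 h animals and 99.3, 50.9 and 65.3 in the 26 °C 6 h animals, against 46.7, 105 and 16.3 in the controls. Its 48 h animals also lay below all 6 h animals at 26 °C, with a log2 change of −1.56 (adjusted p = 0.679) and −1.12 on the common sum. The third model, BSL78_06423 on another scaffold, overlapped between these groups, with 15.2, 33.8 and 15.8 FPKM in the 30 °C animals, against 19.9, 7.85 and 19.1 in the 26 °C 6 h animals, and its 48 h animals (42.8, 20.7 and 20.6 FPKM) lay above all 26 °C 6 h animals. Whether neighbouring models are parts of 1 gene cannot be told from the table.

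A few complex I models differed widely between animals of the same group. BSL78_19809 had 270.1, 0 and 4.63 FPKM in the 30 °C animals, 76.1, 168 and 131 in the 26 °C 48 h animals and 12.6, 30.05 and 1.72 in the 26 °C 6 h animals, against 194, 29.8 and 6.19 in the controls. Within the 30 °C group it ran from the highest value of all 12 animals to no read. BSL78_28330 had 20.2, 0 and 275 FPKM in the 30 °C animals, 159.9, 0.444 and 43.1 in the 26 °C 48 h animals and 20.5, 67.3 and 51.9 in the 26 °C 6 h animals, against 91.01, 133 and 59.7 in the controls. The highest and the lowest of its values were both at 30 °C. BSL78_17763 had 0, 49.5 and 57.9 FPKM in the 30 °C animals, 0, 35.5 and 40.996 in the 26 °C 48 h animals and 4.10, 11.9 and 7.85 in the 26 °C 6 h animals, against 46.1, 108 and 14.1 in the controls. Their within-group SDs were 2.57, 2.74 and 2.40 on the log2 scale, beside the members' median of 0.73. Such genes fill the extremes of the fold changes, and leaving out a single animal turned the sign of some. In 30 °C against control BSL78_19809 stood at −1.61, and at 0.16 without 30 °C animal 2. BSL78_17763 stood at −1.57, and at 0.36 without 30 °C animal 1. BSL78_28330 stood at −1.24 for 30 °C against 26 °C, and at 0.84 without 30 °C animal 2. The 48 h animals did separate from the 6 h animals in BSL78_19809 (76.1, 168 and 131 FPKM in the 26 °C 48 h animals, against 12.6, 30.05 and 1.72 in the 26 °C 6 h animals), with a log2 change of 3.51 (adjusted p = 0.727), and BSL78_17763 lay lower in the 26 °C 6 h animals than in every control, with a log2 change of −2.35 (adjusted p = 0.738).

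Complex II links the citrate cycle to the respiratory chain and moves no protons itself. Its 4 models had a median log2 change of −0.010 for 30 °C against control, the lowest of the complexes, and −1.27 on the common sum. BSL78_16047 (scaffold MRZV01000602.1, 350624 to 351600, coding length 196 bases), the highest, had 180.3, 89.5 and 379 FPKM in the 30 °C animals, 77.8, 134 and 41.2 in the 26 °C 48 h animals and 275, 53.5 and 103 in the 26 °C 6 h animals, against 170.5, 302 and 127 in the controls. Its groups overlapped, and the log2 change for 48 h against control was −1.30 (adjusted p = 1). BSL78_28953 (scaffold MRZV01002243.1, 65775 to 68063, coding length 399 bases) had 44.99, 63.6 and 44.8 FPKM in the 30 °C animals, against 29.2, 93.5 and 78.7 in the controls, overlapping, with the lowest log2 change at 30 °C among the 4, −0.25. The longer model BSL78_04225, picked out after its values were seen, was the steadiest of the complex with a within-group SD of 0.30. It had 41.9, 52.3 and 44.2 FPKM in the 30 °C animals, 35.2, 22.6 and 32.96 in the 26 °C 48 h animals and 24.1, 33.96 and 17.8 in the 26 °C 6 h animals, against 43.005, 38.4 and 35.8 in the controls. In both 26 °C groups every animal lay below every control, while the 30 °C animals lay above all 26 °C 6 h animals; the log2 changes were −0.65 (adjusted p = 0.771) for 6 h and −0.38 (adjusted p = 1) for 48 h against control. After rescaling to a common sum both 26 °C groups overlapped the controls.

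Complex III passes electrons from ubiquinol to cytochrome c. Its Rieske iron-sulfur protein (BSL78_19426, scaffold MRZV01000830.1, 219000 to 222032, coding length 816 bases), the subunit that takes the first electron, had 227, 123 and 194 FPKM in the 30 °C animals, 159, 109 and 74.4 in the 26 °C 48 h animals and 114, 58.01 and 129.6 in the 26 °C 6 h animals, against 56.7, 76.9 and 60.8 in the controls. The 30 °C animals lay above every control. The log2 change was 1.44 (SE 0.53, 95% interval 0.31 to 2.56, adjusted p = 0.341), and 0.14 on the common sum, where the groups overlapped. Subunit 7 (BSL78_01194, scaffold MRZV01000023.1, 498662 to 502848, coding length 240 bases), a small subunit on the inner side, had 1554, 466 and 1964 FPKM in the 30 °C animals, 1446, 615 and 352 in the 26 °C 48 h animals and 604, 403 and 429 in the 26 °C 6 h animals, against 659, 327 and 138 in the controls. Animals 1 and 3 of the 30 °C group stood above every control and animal 2 lay inside the control range. The log2 change was 1.85 (SE 0.73, 95% interval 0.29 to 3.42, adjusted p = 0.387), and 0.54 on the common sum. Subunit 6 (BSL78_07274, scaffold MRZV01000200.1, 75754 to 80704, coding length 279 bases), the hinge protein that helps to bind cytochrome c, had 921, 419 and 973 FPKM in the 30 °C animals, against 519, 545 and 358 in the controls, with overlap.

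Cytochrome c1, the haem protein that hands electrons to cytochrome c, is described for 2 neighbouring models on the same strand, BSL78_13459 and BSL78_13460 (scaffold MRZV01000453.1, 473047 to 475784 and 476156 to 478564, 371 bases apart). The first, named for its steadiness, had the lowest within-group SD of all 74 genes, 0.21 on the log2 scale. Its levels were 104, 116 and 143 FPKM in the 30 °C animals, 70.5, 93.9 and 78.2 in the 26 °C 48 h animals and 101, 70.998 and 77.5 in the 26 °C 6 h animals, against 74.6, 82.6 and 68.8 in the controls. Every 30 °C animal lay above every animal of the other groups as deposited, by a log2 change of 0.67 (adjusted p = 0.649) against control. Rescaled to a common sum, they overlapped the controls and lay below every 26 °C 6 h animal. The second had 280.5, 145 and 330.4 FPKM in the 30 °C animals, against 237, 291 and 159 in the controls, with overlap. Next to this pair, 6166 bases away on the other strand, lies cytochrome c oxidase subunit 4 (BSL78_13458), a complex IV gene with 943, 744 and 1359 FPKM in the 30 °C animals, against 405, 1022 and 398 in the controls, also overlapping.

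Complex IV reduces oxygen to water. Its 9 models had the highest median log2 change for 30 °C against control of the 5 complexes, 0.84 as deposited and −0.47 on the common sum. Above 0 were 7 as deposited, beside 46.0% of all genes, and 3 on the common sum, beside 18.8%. Subunit 6B1 (BSL78_17682) had 3719, 1579.7 and 4514 FPKM in the 30 °C animals, 4330.1, 1205 and 988 in the 26 °C 48 h animals and 1518, 1708 and 1719.8 in the 26 °C 6 h animals, against 1632, 2227 and 789.5 in the controls. The highest 48 h animal stood between both high 30 °C animals and the groups overlapped, with a log2 change of 1.07 (adjusted p = 0.613) at 30 °C. Subunit 7A1 (BSL78_17110) had 2174, 1579.7 and 3341 FPKM in the 30 °C animals, 3851, 1805 and 1711 in the 26 °C 48 h animals and 1177, 1477 and 878 in the 26 °C 6 h animals, against 1386, 3116 and 1054 in the controls. Here the 30 °C and the 48 h animals lay above all 26 °C 6 h animals but not above the controls. Subunit 6C-2 (BSL78_27095), picked out after its values were seen, had 2649, 1265 and 3708 FPKM in the 30 °C animals, 1963, 809 and 585 in the 26 °C 48 h animals and 660.1, 974 and 974.7 in the 26 °C 6 h animals, against 1215, 1225 and 455 in the controls. As deposited, all 30 °C animals lay above all controls and all 26 °C 6 h animals, by log2 changes of 1.40 (adjusted p = 0.463) and 1.44 (adjusted p = 0.397). On the common sum, 0 of the 74 genes, this one included, had their 30 °C animals above all animals of either group.

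Subunit 6A (BSL78_11346, scaffold MRZV01000357.1, 216061 to 217522, coding length 342 bases), a regulatory subunit of the enzyme, stood among the largest positive log2 changes of the 74 genes in all 3 comparisons with control, which share their controls. It had 18.04, 10.8 and 22.1 FPKM in the 30 °C animals, 36.9, 9.22 and 3.08 in the 26 °C 48 h animals and 7.82, 13.6 and 11.98 in the 26 °C 6 h animals, against 2.27, 5.66 and 1.54 in the controls. Controls were lowest, the 30 °C and the 26 °C 6 h animals lay above each of them, and the third 48 h animal lay inside the control range. The log2 changes were 2.18 (SE 0.75, 95% interval 0.58 to 3.79, adjusted p = 0.302) at 30 °C, 1.61 (adjusted p = 1) at 26 °C 48 h and 1.64 (adjusted p = 0.611) at 26 °C 6 h. Rescaled to a common sum they were 1.06, 1.82 and 1.48, and only the 26 °C 6 h animals kept clear of the controls. The adjusted p at 30 °C was the smallest of any member in any comparison. These levels rest on 122 reads over the 12 libraries, against 17140 for subunit 6B1.

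The model described as like the translational activator TACO1 (BSL78_00632), which in mammals is needed to make a mitochondrially encoded subunit of complex IV, had 1.64, 4.50 and 3.35 FPKM in the 30 °C animals, 0, 4.42 and 2.39 in the 26 °C 48 h animals and 3.65, 6.05 and 16.97 in the 26 °C 6 h animals, against 0, 1.89 and 1.15 in the controls. The 26 °C 6 h animals lay above every control, by a log2 change of 2.19 (SE 0.76, 95% interval 0.55 to 3.83, adjusted p = 0.492), and the 48 h animals overlapped the 6 h animals, with −1.67 (adjusted p = 0.708). Its mean was 3.83 FPKM, and 2 libraries had no read.

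Complex V makes the ATP. Its 17 models had a median log2 change of 0.60 for 30 °C against control. As deposited 12 stood above 0, beside 46.0% of all genes, and on the common sum 1, beside 18.8%. Subunit O (BSL78_10320, scaffold MRZV01000313.1, 447272 to 452523, coding length 684 bases), part of the stalk that holds the catalytic head, had 1043, 474 and 2079 FPKM in the 30 °C animals, 917, 386 and 181 in the 26 °C 48 h animals and 882, 500.4 and 229.9 in the 26 °C 6 h animals, against 967, 774 and 326 in the controls. Animal 3 at 30 °C was the highest, and all groups overlapped. The lipid-binding subunit c, which forms the rotor ring, had 1677, 611 and 1028 FPKM in the 30 °C animals, against 477, 1010.2 and 446 in the controls in its model BSL78_04822 (scaffold MRZV01000118.1, 60247 to 63398, coding length 564 bases), with overlap. The gamma subunit (BSL78_15709, scaffold MRZV01000581.1, 245131 to 250868, coding length 708 bases), the central shaft, had 364, 267 and 450.3 FPKM in the 30 °C animals, 117, 109 and 198 in the 26 °C 48 h animals and 98.9, 126 and 229 in the 26 °C 6 h animals, against 161, 372 and 125 in the controls. The 30 °C animals lay above all 26 °C 6 h animals, by a log2 change of 1.31 (adjusted p = 0.388), and control animal 2 kept the comparison with control from separating. The catalytic beta subunit (BSL78_24673), added after its values were seen, had 707, 452 and 599 FPKM in the 30 °C animals, 673, 438 and 373 in the 26 °C 48 h animals and 273, 351 and 371 in the 26 °C 6 h animals, against 521, 876 and 480.4 in the controls. Its 26 °C 6 h animals lay below all animals of the other groups, by a log2 change of −0.87 (adjusted p = 0.693) against control. Rescaled, the 26 °C 6 h animals overlapped the controls. Subunit s (BSL78_02885), which in mammals is also called factor B, had 0, 4.28 and 16.2 FPKM in the 26 °C 6 h animals, against 19.3, 14.5 and 24.2 in the controls, a log2 change of −2.15 (adjusted p = 0.558); the groups overlapped and the value without a read was a single animal. Its change for 30 °C against 26 °C 6 h was 1.49 (adjusted p = 0.539).

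The alpha subunit, which alternates with beta in the catalytic head, is described for 3 models. BSL78_00903 and BSL78_00904 are neighbours 163 bases apart on the same strand (scaffold MRZV01000017.1, 1207786 to 1211604 and 1211768 to 1217931), and BSL78_26404 lies on another scaffold. The 3 models summed to 715 ± 299 FPKM in the 30 °C animals, 344 ± 75.6 in the 26 °C 48 h animals and 358 ± 41.3 in the 26 °C 6 h animals, against 363 ± 144 in the controls (SD, n = 3 each). In every animal the first model held 47.98% to 64.8% of this sum. BSL78_00904, singled out because its groups separated, had 84.4, 104 and 115 FPKM in the 30 °C animals, against 77.9, 77.1 and 47.7 in the controls and lay higher at 30 °C than in every animal of the other groups as deposited. Rescaled to a common sum, its 30 °C animals lay below every control instead.

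Several subunits have 2 or more models, and how their reads divided differed between subunits. Complex III subunit 9 has BSL78_09353 and BSL78_19517, on different scaffolds and both with a coding length of 201 bases. The first held 54.2%, 28.8% and 8.86% of the pair's FPKM in the 30 °C animals, 23.9%, 34.7% and 77.3% in the 26 °C 48 h animals and 66.7%, 0% and 94.1% in the 26 °C 6 h animals, against 13.8%, 92.9% and 12.8% in the controls. Within each group, then, the pair leaned to 1 model in some animals and to the other in others. Their sum was steadier at 347 ± 109 FPKM at 30 °C, 487 ± 390 at 26 °C 48 h and 373 ± 124 at 26 °C 6 h, against 449.5 ± 99.99 in the controls (SD, n = 3 each), with a within-group SD of 0.71 on the log2 scale, beside 2.66 for BSL78_09353 and 1.73 for BSL78_19517 alone. The change of BSL78_09353 for 48 h against 6 h, 2.01, was −0.63 without 26 °C 6 h animal 2, the animal with no read on it.

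ATP synthase subunit g, a membrane subunit involved in pairing of the enzyme, showed the same kind of division between BSL78_06876 and BSL78_19404, which lie on different scaffolds. The first held 79.3%, 13.9% and 99.7% in the 30 °C animals, 48.3%, 51.7% and 64.9% in the 26 °C 48 h animals and 15.4%, 42.5% and 74.6% in the 26 °C 6 h animals, against 33.98%, 16.8% and 65.2% in the controls. The sum had a within-group SD of 0.55, beside 1.24 and 1.85 for the single models. The change of BSL78_06876 for 48 h against control was 1.46 (adjusted p = 1), with no overlap of the groups as deposited. On the common sum this change was 1.64, and the groups overlapped. For BSL78_19404 the change for 30 °C against 26 °C was −1.92 (adjusted p = 0.573), and 0.50 when 26 °C 6 h animal 1 and 30 °C animal 3 were left out together. In contrast, the 2 models of the lipid-binding subunit c, BSL78_04822 and BSL78_07506, divided their FPKM almost alike in all animals, with 54.9% to 63.99% on the first. Reads from near-identical copies may have been split between models by the authors' counting, which is not described here, so the division between like-named models is uncertain.

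**Figure D5:**
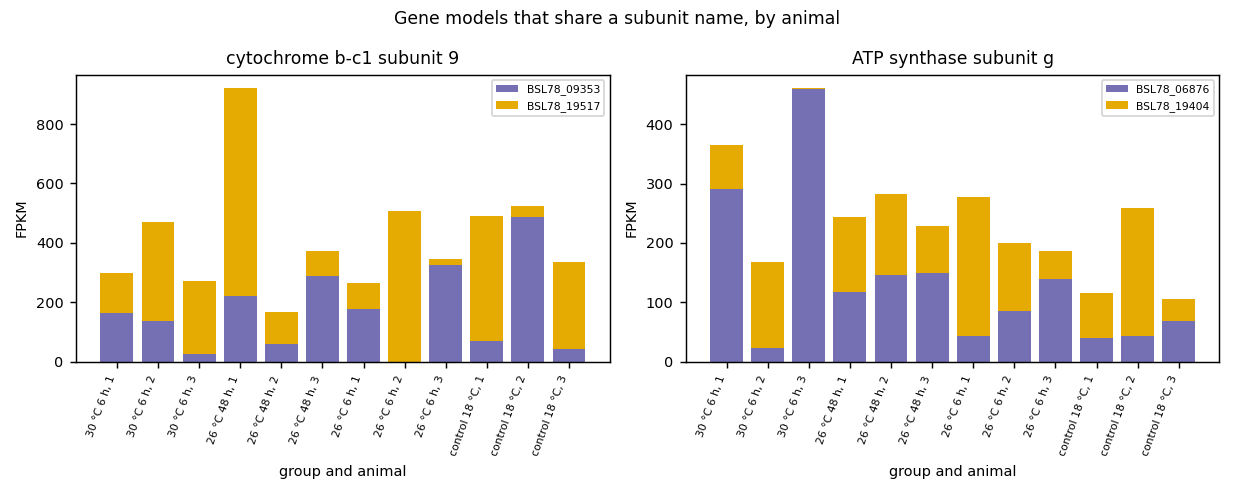
FPKM of the like-named gene models of cytochrome b-c1 subunit 9 (left) and of ATP synthase subunit g (right) in each of 12 animals, stacked; colours mark the models. The share of the first model runs from 0% to 94.1% on the left and from 13.9% to 99.7% on the right, and varies widely within groups.

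Nearness in the genome was rare among the members. The 74 models lie on 66 scaffolds. Besides the pairs above, subunit 7A1 of complex IV (BSL78_17110) and a model related to it (BSL78_17109) lie 247 bases apart on opposite strands, with mean levels of 1962 and 55.1 FPKM. Since the counting is not stated to use strand, reads of 1 that reach into the other cannot be told apart. Complex III subunit 6 (BSL78_07274) and ATP synthase subunit delta (BSL78_07275) follow each other on the same strand at 7719 bases.

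Other genes of the pathway gave 0 calls in every comparison as well, counted here in lists drawn by description with earlier results of these data known. Of the 14 genes that carry electrons or exchange substrates with the chain, 12 stood above 0 for 30 °C against control, beside 46.0% of all genes. Their median was 0.85 as deposited, beside −0.074 for all genes, and −0.27 on the common sum, beside −0.85. For 26 °C 6 h against control it was 0.52, where that of the 74 genes was −0.19. For 48 h against 6 h it was −0.25 as deposited, where that of the 74 genes was 0.19, and 0.20 on the common sum. Cytochrome c (BSL78_09867), which shuttles electrons from complex III to IV, had 866, 548 and 1293 FPKM in the 30 °C animals, 1301, 367 and 336 in the 26 °C 48 h animals and 450.1, 384 and 629 in the 26 °C 6 h animals, against 347, 395 and 206 in the controls. As deposited the 30 °C animals lay above every control, but after rescaling to a common sum they overlapped the controls. A cytochrome c of the somatic type (BSL78_13713) had 443, 145 and 593 FPKM in the 30 °C animals, 1093, 527 and 160.2 in the 26 °C 48 h animals and 491, 1137 and 231 in the 26 °C 6 h animals, against 160.1, 151 and 124 in the controls, with each animal of both 26 °C groups above each control and the 30 °C animals overlapping them. The ADP/ATP translocase (BSL78_16076), which exports the ATP made, averaged 1077 FPKM, with 1362, 1257 and 1626 FPKM in the 30 °C animals, against 1065, 1535 and 688 in the controls, overlapping. The alternative oxidase (BSL78_08767), which passes electrons from ubiquinol straight to oxygen without complexes III and IV, had 29.9, 32.3 and 4.74 FPKM in the 30 °C animals, against 5.36, 2.72 and 7.38 in the controls, with 2 high animals at 30 °C and the third inside the control range.

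Median log2 changes for 30 °C against control were 0.41 for the 23 citrate cycle genes, 0.046 for the 95 tested of 96 mitochondrial ribosome proteins and −0.013 for the 8 genes of coenzyme Q synthesis. They were −0.36 for the 21 tested of 23 assembly factors and −0.61 for the 14 tested of 15 V-type proton pump subunits. On the common sum these medians were −0.85, −1.04, −0.99, −1.23 and −1.49, beside −0.81 for the 74 genes and −0.85 for all genes. For 48 h against 6 h at 26 °C they were 0.25, 0.34, −0.12, 0.11 and 0.28 as deposited, beside 0.19 for the 74 genes. On the common sum they were 0.70, 0.62, 0.28, 0.55 and 0.69, beside 0.65 for the 74 genes and 0.46 for all genes. In share of reads, citrate cycle genes held 0.0809% to 0.153% at 48 h, against at most 0.0586% at 26 °C 6 h and 0.076% at 30 °C. Mitochondrial ribosome proteins, assembly factors and the electron carriers also stood above every 6 h animal there. Coenzyme Q synthesis and V-type pump genes overlapped. Markers of neurons (24 of 35 tested) had a median of 0.29 and markers of the germ line (5 of 7 tested) of 0 for 30 °C against control.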

How the data were processed

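Messenger RNA of the intestine was sequenced in 12 libraries, 1 animal each, 3 per group. Per the labels' protocols, total RNA of each animal was extracted with Trizol, messenger RNA was purified and TruSeq libraries were read on an Illumina HiSeq, so the libraries of a group are separate animals. Per the file headers, the authors deposited FPKM and, for each of 30221 gene models, its place, strand, length and a description. Aligner, counting tool and genome build are not given in the sources used here. Lengths are taken as coding lengths because 94.0% are multiples of 3. The rest, some named genes among them, are not. A reference gene table matched 0 identifiers, so names are the table's and no sequence is shown.

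Reads were recovered from FPKM times length, whose values were whole multiples of a library's smallest step in 100.0% of cases, within 0.05 reads, and came to 1788303 to 3956056 reads on genes. limma 3.58.1 in R 4.3.3 tested log2(FPKM + 1) with a trend in the variance, for the 18729 genes whose mean reached 0.5 FPKM, as group means over 12 libraries with 8 residual degrees of freedom. Tests are two-sided and adjusted over all genes. The script was checked on simulated data, with large changes set in genes of higher FPKM and the spread between animals capped. That check says nothing about power for the noisier members or for small changes. Intervals of log2 changes use the same model. Shares of reads have 95% Wilson intervals. Groups count as not overlapping when every value of 1 group exceeds every value of the other. Named were, by rule, every gene past the test, the 2 highest of each complex, the 3 highest and 3 lowest log2 changes of each comparison, the gene with the smallest F test p of each complex and any gene without reads; like-named or neighbouring models, genes of other lists and the others marked in the text were added after their values were seen. Members and lists were chosen with earlier results of these data known. Alternatives were other pseudocounts (0.1), filters (none, or 5 FPKM), scalings, voom on recovered reads at the deposited scaling, only the groups compared, a replicate block, array weights, no trend and leaving out each animal. Added after seeing the data were genes detected as a covariate, leaving out 2 libraries together and scaling on the members.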

Additional observations from a re-analysis of the deposited data

How the results depend on the processing

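No member was called under any of the 25 alternative settings, in any comparison or the F test, and the smallest adjusted p of a member was 0.0785 there, beside 0.302 as reported. The medians of the 74 genes moved beyond the spread between animals (0.31) in these cases. For 30 °C against control the median was −0.81 on the common sum, −0.41 with quantile scaling and −0.067 scaled on the members (which centres them near 0 by construction), and for 30 °C against 26 °C it was −0.24, 0.093 and 0.11. For 48 h against 6 h it was 0.65 on the common sum. The cause was not tested beyond the scaling itself. Leaving out single animals gave 0.19 to 0.70, 0.57 to 0.98 and 0.032 to 0.25 in these comparisons, −0.44 to 0.038 for 26 °C 6 h against control and −0.22 to 0.19 for 48 h against control. Among the genes named for the largest changes of a comparison, signs turned in 5 values under alternatives and held in 742. Over all members, 42 of the 74 at 30 °C against control and 44 at 30 °C against 26 °C stood above 0 as deposited and below 0 on the common sum, among them at 30 °C against control BSL78_17682 (1.07 and −0.24), BSL78_17110 (0.44 and −0.87), BSL78_11192 (0.59 and −0.72) and BSL78_10320 (0.69 and −0.62). In BSL78_19809 and BSL78_17763 the ranges for 30 °C against control were −3.89 to 0.16 and −2.58 to 0.36. In BSL78_28330 and BSL78_19404 they were −3.71 to 0.84 and −3.08 to 0.50 for 30 °C against 26 °C, single animals and the 2 libraries left out together included, and in BSL78_09353 −0.63 to 3.55 for 48 h against 6 h.

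The share of reads on the members, as a share of summed FPKM instead, was 1.09% at 30 °C, 1.92% at 48 h, 1.21% at 26 °C 6 h and 1.64% in controls. Without heat shock genes and major yolk proteins it was 1.06%, 1.28% and 0.902% in the heat groups in the same order, against 0.907%, 1.55% and 1.10% in the single control animals. Summed FPKM on the common sum was 3175, 184, 1759, 5650 and 4297 for complexes I to V at 30 °C. In the same order it was 6188, 306, 3567, 9827 and 6595 at 48 h and 3760, 271, 2239, 5813 and 4625 at 26 °C 6 h. In controls it was 4636, 491, 2470, 8119 and 6993. Calls over all genes ranged from 11 to 265 for 30 °C against control (121 as reported, highest without 30 °C animal 3, lowest with only the groups compared), 0 to 153 for 30 °C against 26 °C (55), 0 to 44 for 26 °C 6 h against control (6), 0 to 1 for 48 h against control (0), 0 to 4 for 48 h against 6 h (2) and 22 to 207 for the F test (101).

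The labels number animals alike in each group. Same-numbered animals did not deviate together (r from −0.18 to 0.15 over 18 pairs, 1 over 0.1, and 2 of 12 libraries correlated best with their own number). With the replicate block 0 members were called in each comparison, and 101, 13, 5, 1 and 1 genes of all for 30 °C against control, 30 °C against 26 °C, 26 °C 6 h against control, 48 h against control and 48 h against 6 h, with 69 for the F test. Precision is limited by 3 animals per group and, for some members, few reads.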
